A study of Gallus gallus with 4 samples.

Results

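The genes described here are the parts list of cell division: the cyclin-dependent kinase that starts mitosis and its cyclins, the spindle checkpoint, the kinesins and other proteins that build the spindle, the kinetochore and centromere, and the proteins that fold chromosomes. They were taken from a list of 55 gene names, and a gene counted as present when an array probe carried a RefSeq transcript accession of that gene. Of the 55 genes, 40 were on the array by this rule, with 85 probes, among 5382 named genes in all. KIF4A was found under the symbol KIF4B. TTK, AURKA, AURKB, UBE2C, ESPL1, DLGAP5, ANLN, RACGAP1, SPC24, ZWINT, CENPE, CENPF, CENPC, MKI67 and NCAPG were not analysed here, so the cytokinesis group had no measured gene.

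The arrays measured total RNA from cultures of chicken neural retina. Retinas of embryonic day 8 (stage 33) were dissociated and grown in medium with fetal serum. The treated cultures received 10 µM DAPT, an inhibitor of γ-secretase, the protease that frees the active part of the Notch receptor, starting on day 2, and their RNA was extracted on day 12. The controls received the same volume of the solvent, DMSO, over the same days, and medium was changed every 2 days in both groups. Each group held 2 samples, and each sample was hybridised to 1 one-colour Agilent array. Whether the 2 samples of a group were grown from different embryos or dishes is not stated in the labels, and the p-values reflect the spread among these arrays alone, part or all of which may be technical. Dissociated retina is a mixture of cell types, and in such bulk RNA fewer cells of a type and less RNA per cell cannot be told apart.

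A cell that commits to divide first copies its DNA and then, driven by CDK1 bound to B-type cyclins, condenses its chromosomes and builds a spindle. The checkpoint proteins BUB1, BUB1B and MAD2L1 hold back CDC20, the activator of the anaphase-promoting complex, until every kinetochore is attached. Transcripts of most of these genes accumulate in G2 and M phase, so that in a mixed tissue they are used as a readout of dividing cells. In the embryonic retina progenitors divide while neurons leave the cycle, and cells such as fibroblasts, glia and lens epithelium can divide in culture too.

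Values are log2 signals relative to the 75th percentile of the array, so that 0 is the level of that percentile, and levels of different genes are not compared because each probe binds with its own strength. The arrays had 85.7% to 89.3% of 43803 spots well above background, and all 40 genes were well above background on all 4 arrays. Arrays of replicate 1 lay on 1 slide and those of replicate 2 on another, and the differences within a slide are given as ranges and for some genes. The 2 DMSO arrays had a correlation of 0.994 and the 2 DAPT arrays one of 0.996, taken over features and given as a description. All 9 retinal neuron and all 9 photoreceptor markers on the array were well above background on every array. So were 10 of 11 retinal progenitor, 16 of 16 lens and 14 of 16 fibroblast markers. Detection thus did not set the retinal lists apart. HES5, a Notch target and progenitor marker, was not well above background on any array.

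Most of the division genes were higher in DAPT. Of the 40 genes, 29 rose and 1 fell at an adjusted p under 0.05 in limma, and 10 did not pass. Over all 32291 features tested, 12.4% were called higher and 13.1% lower, against 72.5% and 2.5% of these genes. Because the genes were chosen with earlier results of these data known, this contrast is a description and was not tested. The median log2 difference was 0.82 (1.77-fold), and over all features it was 0.062. The 29 genes that rose lay between 0.64 and 1.22 on the log2 scale, or 1.55-fold to 2.33-fold, and 8 of them rose at least 2-fold. The 10 that did not pass lay between -0.27 and 0.46. Both DAPT arrays lay above both DMSO arrays for 35 genes (87.5%), below them for 2, and the groups overlapped for 3, where 36.9% of all features lay above and 28.8% below. Of the features with a gene symbol, 14.2% were called higher and 13.8% lower. With a change of at least 1.5-fold required as well, the counts stayed at 29 and 1, against 9.93% of all features higher and 3714 features lower.

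The rise was of like size within each slide, while fewer genes were called when 1 array was left out. The median was 0.86 on slide 1 and 0.74 on slide 2, where over all features it was 0.050 and 0.067. The 29 genes that rose did so on both slides, by 0.63 to 1.32 on slide 1 and 0.57 to 1.14 on slide 2. Without DAPT replicate 1, and likewise without DAPT replicate 2, most of these genes lost the call. The share of all features called fell too, in both directions. In these fits the DAPT arm is 1 array, the spread comes from the 2 DMSO arrays and the prior, and the lone array is assumed to vary like them. The 4 genes called in both of these fits were BUB1, NUF2, PBK and SMC2, and the medians were 0.80 and 0.81. Without DMSO replicate 1, fewer division genes and a smaller share of all features were called higher than with all arrays.

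**Figure D1:**
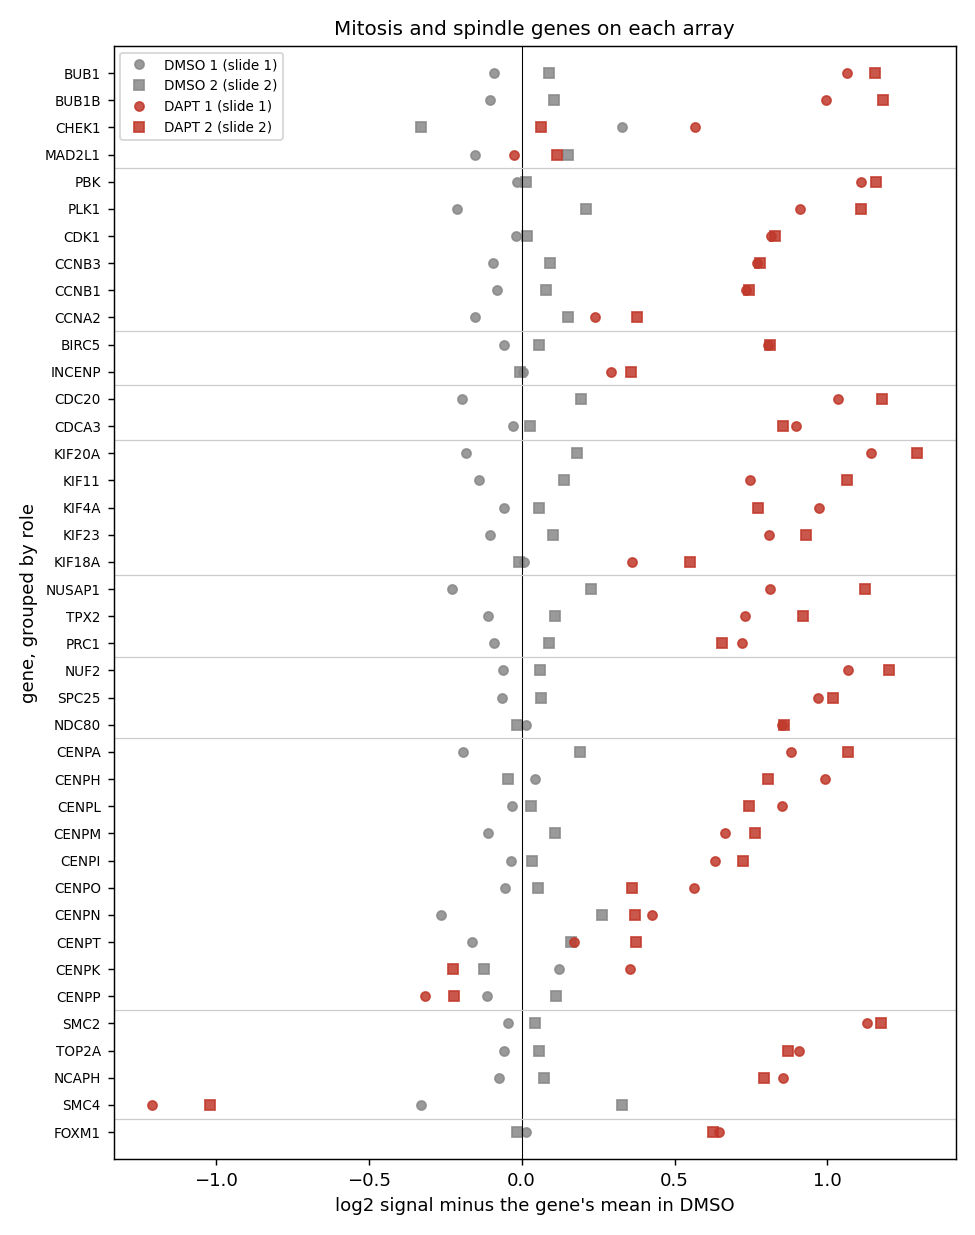
Log2 signal of each of the 40 division genes on each array, minus that gene's mean in DMSO (x axis), with genes grouped by role (y axis). Grey points are DMSO and red points DAPT, circles slide 1 and squares slide 2. For 35 genes both red points lie right of both grey points, and for SMC4 and CENPP both lie left of them.

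The spindle checkpoint genes did not move as a unit. BUB1, a kinase that recruits checkpoint proteins to kinetochores, was at -1.06 and -0.88 in DMSO and at 0.09 and 0.19 in DAPT. It rose by 1.11 ± 0.12 (adjusted p = 0.00645; here and for every gene, the log2 difference with its SE from limma, n = 2 arrays in each group), and the groups were far apart. BUB1B, which encodes the checkpoint inhibitor BUBR1, was at -0.15 and 0.06 in DMSO and at 0.95 and 1.13 in DAPT, a rise of 1.09 ± 0.14 (adjusted p = 0.00908) on which its 2 probes agreed to within the second decimal (1.09 for each).

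MAD2L1, which encodes the MAD2 protein that captures CDC20, was measured by 1 probe only. It was at 1.15 and 1.46 in DMSO and at 1.28 and 1.42 in DAPT. Its groups overlapped, and the difference of 0.05 had a 95% confidence interval from -0.35 to 0.45, which leaves out the size seen for BUB1 and BUB1B. Within an array, the log2 ratio of BUB1B to MAD2L1 was -1.31 and -1.40 in DMSO, against -0.33 and -0.29 in DAPT, a shift of 1.04. This pair of genes, and the 2 pairs given further on, were chosen after their values were seen, so their ratios are descriptions without a test. CHEK1, a kinase of the DNA damage checkpoint, was dim, at -4.15 and -4.81 in DMSO and -3.91 and -4.42 in DAPT, and its difference of 0.31 ± 0.30 did not pass. Its 2 probes well above background gave 0.31 and 0.87. The call it gained with the mean of its 3 probes (adjusted p = 0.0491) includes a probe that was not well above background on any array.

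Among the mitotic kinases and cyclins, 5 of 6 rose. For this group and those that follow, 12.4% of all features were called higher and 13.1% lower. PBK, a kinase active in mitotic cells, was at 2.26 and 2.29 in DMSO and at 3.39 and 3.43 in DAPT. Its rise of 1.13 ± 0.10 (adjusted p = 0.00414) was nearly the same on both slides, 1.12 and 1.14. PLK1, the polo-like kinase needed for spindle assembly and mitotic exit, was at -1.67 and -1.25 in DMSO and -0.55 and -0.35 in DAPT, a rise of 1.01 ± 0.19 (adjusted p = 0.0240).

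CDK1, the kinase that drives entry into mitosis, was at 2.55 and 2.59 in DMSO and at 3.39 and 3.40 in DAPT, with a spread within groups far smaller than its rise of 0.82 ± 0.10 (adjusted p = 0.00827). Its partner CCNB1, cyclin B1, was at 2.26 and 2.42 in DMSO and at 3.07 and 3.08 in DAPT, a rise of 0.74 ± 0.11 (adjusted p = 0.0147). CCNB3, another B-type cyclin, rose by a like amount, 0.77 ± 0.12 (adjusted p = 0.0143).

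CCNA2, which encodes the cyclin A that acts from S phase into early mitosis, was at -0.03 and 0.27 in DMSO and at 0.36 and 0.50 in DAPT. Both DAPT arrays were above both DMSO arrays, but the difference of 0.31 ± 0.15 did not pass (adjusted p = 0.209). The log2 ratio of CCNB1 to CCNA2 within an array was 2.29 and 2.15 in DMSO, against 2.71 and 2.58 in DAPT, a shift of 0.43 that was 0.42 on slide 1 and 0.44 on slide 2.

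FOXM1, the transcription factor known for driving many genes of G2 and M phase, was at -1.92 and -1.95 in DMSO and at -1.29 and -1.31 in DAPT. It rose by 0.64 ± 0.10 (adjusted p = 0.0155), the smallest rise among the 29 genes called. Its 4 probes spread from 0.24 to 1.47, and with the probe that changed least, FOXM1 missed the threshold (adjusted p = 0.560), so the size of its change is uncertain.

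Both measured genes of the anaphase and ubiquitin group, CDC20 and CDCA3, rose, and 1 of 2 passenger complex genes did. CDC20 was at 1.19 and 1.57 in DMSO and at 2.41 and 2.56 in DAPT, a rise of 1.11 ± 0.17 (adjusted p = 0.0152). CDCA3, an F-box-like protein known for its part in the breakdown of WEE1, rose by 0.88 ± 0.10 (adjusted p = 0.00745) from 2.24 and 2.30 to 3.17 and 3.13. BIRC5, survivin, which holds the chromosomal passenger complex at the centromere, was at 1.64 and 1.76 in DMSO and at 2.51 on both DAPT arrays, a rise of 0.81 ± 0.11 (adjusted p = 0.0102). INCENP, the scaffold of the same complex, was at 0.02 and 0.01 in DMSO and at 0.31 and 0.37 in DAPT. Its groups were apart, but the difference of 0.33 ± 0.10 did not pass (adjusted p = 0.0848), although it did with the slide as a block (adjusted p = 0.0454) and with a trended prior (adjusted p = 0.0441).

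Kinesins, the motors that move along spindle microtubules, rose in 4 of 5 cases. KIF20A, which acts at the central spindle in cytokinesis, showed the largest rise of the 40 genes, from -0.33 and 0.03 to 0.99 and 1.14, a change of 1.22 ± 0.16 (adjusted p = 0.0111). Its 5 probes ranged from 0.91 to 1.22. KIF11, the motor that pushes the spindle poles apart, rose by 0.91 ± 0.17 (adjusted p = 0.0260) from -0.54 and -0.26 to 0.35 and 0.67. KIF4A, a motor of chromosome arms and the spindle midzone, and KIF23, the motor subunit of centralspindlin, each rose by 0.87 ± 0.13 (adjusted p = 0.0128 and 0.0134). KIF18A, which dampens chromosome movement at metaphase, was at -4.01 and -4.03 in DMSO and at -3.65 and -3.47 in DAPT. Its difference of 0.46 ± 0.12 fell just short (adjusted p = 0.0552), and it passed with the slide as a block (adjusted p = 0.0288).

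All 3 measured spindle proteins rose. TPX2, which activates Aurora A and seeds microtubules near chromosomes, was at -0.37 and -0.15 in DMSO and at 0.47 and 0.66 in DAPT, a rise of 0.83 ± 0.14 (adjusted p = 0.0186). NUSAP1, a microtubule-bundling protein, was at -1.81 and -1.35 in DMSO and at -0.77 and -0.46 in DAPT. It had the widest error of the genes that rose, 0.97 ± 0.21 (adjusted p = 0.0364). PRC1, which crosslinks the midzone, rose by 0.69 ± 0.12 (adjusted p = 0.0195), and its 3 probes gave 0.69 to 1.05.

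The outer kinetochore genes, whose products grip microtubule ends, all rose as well, and the 3 measured ones belong to the 4-subunit NDC80 complex. NUF2 was at 0.23 and 0.35 in DMSO and at 1.35 and 1.49 in DAPT, a rise of 1.13 ± 0.12 (adjusted p = 0.00565). SPC25 was at 0.02 and 0.15 in DMSO and at 1.05 and 1.1 in DAPT, a rise of 0.99 ± 0.11 (adjusted p = 0.00662). NDC80 was at -0.60 and -0.63 in DMSO and at 0.24 and 0.25 in DAPT, a rise of 0.85 ± 0.10 (adjusted p = 0.00751). No array of 1 group came near the other for any of these genes.

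The inner centromere genes, which encode the centromeric histone and the network that sits on it through the cycle, were split, with 5 of 10 called higher, none called lower and a median of 0.57. CENPA, the histone variant that marks the centromere, was at -5.36 and -4.97 in DMSO and at -4.29 and -4.10 in DAPT, a rise of 0.97 ± 0.17 (adjusted p = 0.0221). CENPH was at 0.32 and 0.23 in DMSO and at 1.27 and 1.08 in DAPT, a rise of 0.90 ± 0.12 (adjusted p = 0.0108). CENPL, CENPM and CENPI rose by 0.80, 0.71 and 0.68 (adjusted p between 0.0108 and 0.0218). CENPA and CENPM were dim, and with normexp background correction their differences were 0.49 and 0.46.

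The other five centromere genes did not pass. CENPO, at 0.46 ± 0.12, lay just outside the threshold (adjusted p = 0.0616) and passed with the slide as a block (adjusted p = 0.0397). It also passed with the mean of its 3 probes, 1 of which was not well above background on either DMSO array. CENPN was at -5.74 and -5.22 in DMSO and at -5.05 and -5.11 in DAPT, and its difference was 0.69 on slide 1 and 0.11 on slide 2. CENPT, which links the centromere to the NDC80 complex, was at 0.82 and 1.15 in DMSO and at 1.16 and 1.36 in DAPT, a difference of 0.27 ± 0.16 (adjusted p = 0.293). CENPK was at -6.47 and -6.72 in DMSO and at -6.24 and -6.82 in DAPT, where the groups overlapped and the difference of 0.06 ± 0.23 did not pass. CENPP was at -0.19 and 0.04 in DMSO and at -0.39 and -0.29 in DAPT, but its 2 probes disagreed in sign, -0.27 and 0.69.

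**Figure D2:**
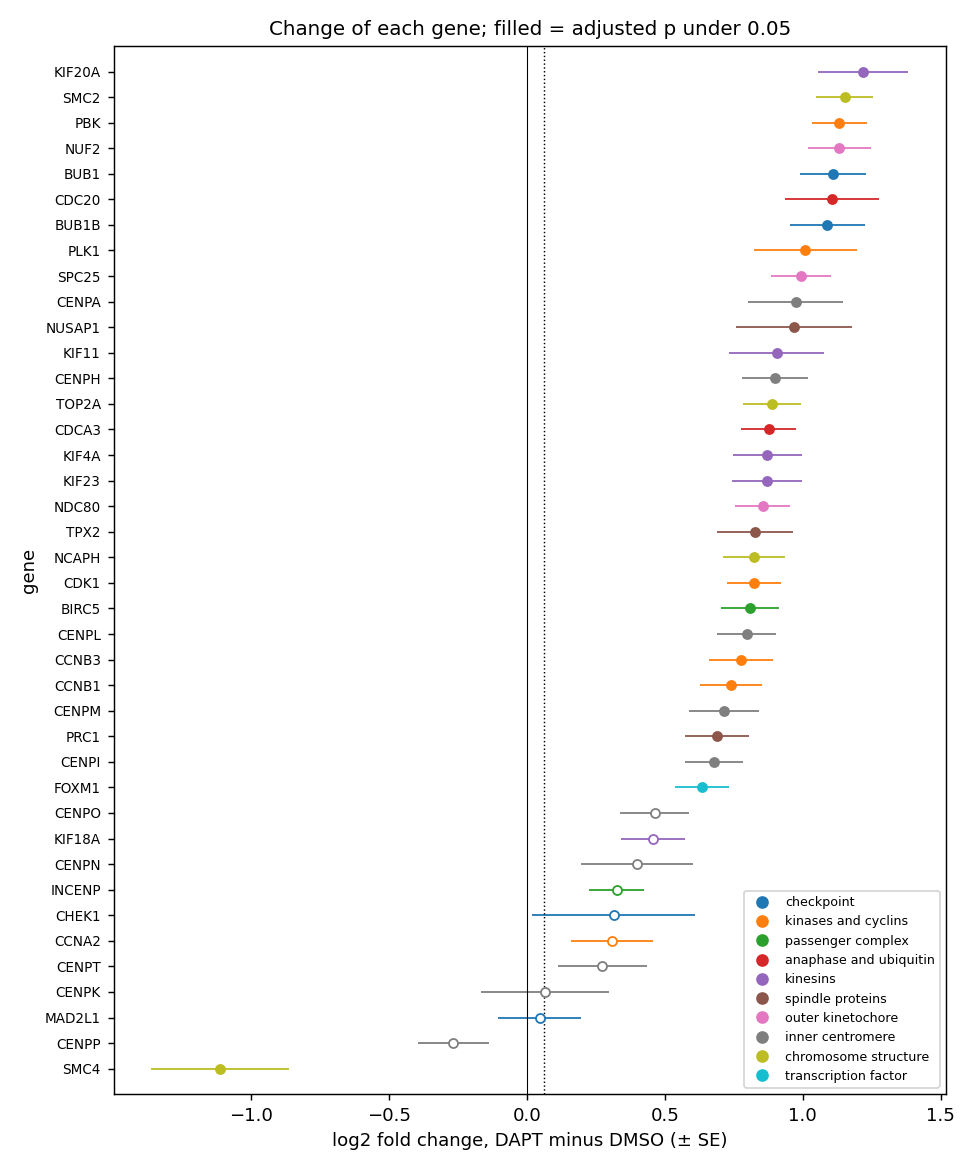
Log2 fold change between DAPT and DMSO for each of the 40 genes (x axis, bars are ± SE from limma, 2 arrays per group), sorted by size and coloured by role. Filled points had an adjusted p under 0.05, and the dotted line is the median of all features, 0.062. The filled points on the right run from FOXM1 at 0.64 to KIF20A at 1.22, and SMC4 alone is filled on the left, at -1.11.

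Of 4 chromosome structure genes 3 rose and 1 fell. TOP2A, the topoisomerase that untangles sister chromatids, was at 2.53 and 2.65 in DMSO and at 3.50 and 3.46 in DAPT, a rise of 0.89 ± 0.11 (adjusted p = 0.00816). SMC2, a core subunit of condensin, was at -0.48 and -0.39 in DMSO and at 0.70 and 0.74 in DAPT, a rise of 1.15 ± 0.10 (adjusted p = 0.00437) with 3 probes between 1.15 and 1.20. NCAPH, the condensin I subunit that closes the ring, rose by 0.82 ± 0.11 (adjusted p = 0.0112).

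SMC4, the obligate partner of SMC2 in condensin, went the other way. It was at 2.04 and 2.70 in DMSO and at 1.16 and 1.35 in DAPT, a change of -1.11 ± 0.25 (adjusted p = 0.0396), with -0.88 on slide 1 and -1.34 on slide 2. Its 3 probes all gave a decrease, from -1.28 to -1.11. The log2 ratio of SMC2 to SMC4 within an array was -2.52 and -3.08 in DMSO, against -0.46 and -0.61 in DAPT, a shift of 2.26. The call for SMC4 was lost without DAPT replicate 1, without DAPT replicate 2 and with no filter on dim probes, while its difference stayed between -1.44 and -0.79 under every alternative.

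**Figure D3:**
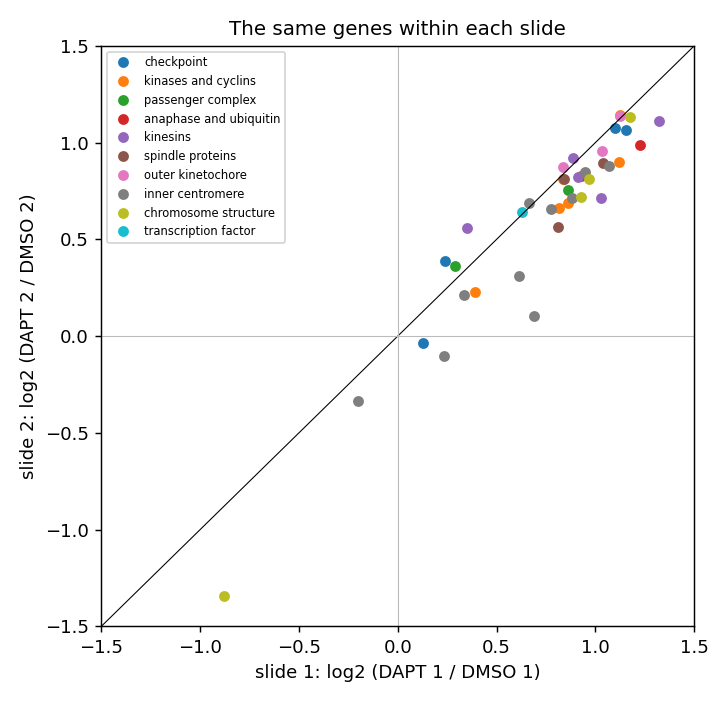
Log2 ratio of DAPT to DMSO on slide 1 (x axis) against slide 2 (y axis) for the 40 genes, coloured by role, with the line of equal values. Points in the upper right are the 36 genes higher in DAPT on both slides, and 31 of 40 lie below the line, with a larger value on slide 1.

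Probes of a gene mostly shared a sign but could differ in size. Of the 40 genes, 26 had more than 1 probe, and all probes of a gene had the same sign in 25 of them, CENPP being the exception. With the probe that changed least, 4 of the 29 calls were lost. The standard deviation between replicates had a median of 0.13 in DMSO and 0.080 in DAPT. In DMSO, replicate 2 was above replicate 1 for 33 of the 40 genes. The matching count over all features was not made.

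Other genes of mitosis, from a list of 179 were represented by 78 on the array. In that list 25 rose (32.1%) and 2 fell, where 12.4% of all features rose and 13.1% fell, and the median was 0.21. Most of these calls of a rise were lost without DAPT replicate 1 and likewise without DAPT replicate 2, and fewer were made without DMSO replicate 1. The share of all features called higher fell too in each of these fits. The difference between the lists was not tested. Of 11 kinases, phosphatases and cyclins in this list, 4 rose, and the median was 0.15. NEK2, a centrosome kinase, rose by 1.20 ± 0.10, MELK, a kinase of dividing cells, by 1.11 ± 0.10, and CKS1B, a small partner of cyclin-dependent kinases, by 0.88 ± 0.18. NEK2 was dim, and with normexp correction its difference was 0.68. SGO1, shugoshin, which protects cohesin at the centromere, rose by 1.15 ± 0.12. PTTG1, the gene for securin, found under the symbol PTTG2, rose by 0.75 ± 0.11, the 1 rise among 7 genes of the anaphase-promoting complex and its regulators. None of the 3 kinesins and 2 checkpoint genes measured in this list passed, with medians of 0.27 and 0.28.

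Among spindle and centrosome proteins 11 of 20 rose and 1 fell, where 12.4% of all features rose and 13.1% fell. GTSE1, a microtubule tip protein, rose by 1.18 ± 0.11, KPNA2, an importin that binds TPX2, by 1.00 ± 0.17, and CKAP2, a microtubule-associated protein, by 0.88 ± 0.15. CLASP2, which stabilises microtubule ends and is also used outside division, was at -0.44 ± 0.10 and lost its call under 5 alternatives besides the left-out arrays. DEPDC1, DEPDC1B and ARHGAP11A (found as ARHGAP11B) rose by 1.26 ± 0.19, 1.08 ± 0.12 and 0.56 ± 0.10, the 3 rises among 8 genes of the cytokinesis group. MIS12, which anchors the outer kinetochore, rose by 0.75 ± 0.12, the 1 rise among 3 kinetochore genes of this list (median 0.22).

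At the centromere HJURP, the chaperone that deposits CENPA, rose by 0.91 ± 0.10, CENPW by 0.84 ± 0.12 and CENPS by 0.80 ± 0.11, 3 of 6 in that group. No gene of the condensin and cohesin group passed among 6 measured (median 0.04). Of 11 cell cycle transcription factors and their cofactors, 9.09% were called higher and 9.09% lower, against 12.4% and 13.1% of all features. E2F1 was the 1 rise, at 0.50 ± 0.10, but its 3 probes ran from 0.24 to 0.50. It lost the call under 4 alternatives, the mean of its probes among them, and without each array in turn. RB1, the retinoblastoma protein that restrains E2F factors, fell by 0.77 ± 0.13 on the log2 scale (adjusted p = 0.0197), with the call lost without either DAPT array. The 15 genes from NEK2 to CENPS that rose in this list had adjusted p-values between 0.00358 and 0.0292.

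Most DNA replication genes had a positive difference, smaller at the median than that of the division genes. Of 25 genes 9 rose (36%) and 1 fell, with a median of 0.30. A positive difference was seen in 23, and in 21 both DAPT arrays lay above both DMSO arrays. Of all features, 12.4% were called higher, 13.1% lower, and 36.9% had both DAPT arrays above both DMSO arrays. RFC2, a subunit of the clamp loader, rose by 1.13 ± 0.11, MCM5, of the replicative helicase, by 1.01 ± 0.17, and RRM1, of ribonucleotide reductase, by 0.86 ± 0.11, while MCM2, of the same helicase and named after its value was seen because it was the 1 fall, was at -0.56 ± 0.13 (adjusted p = 0.0441) and lost its call with normexp, with no filter, with the 1.5-fold threshold, without DMSO replicate 1 and without either DAPT array. Of 8 G1 cyclin, kinase and MYC genes 3 rose and 2 fell. CDK6, a kinase that phosphorylates RB1, was at 3.79 and 3.67 in DMSO and at 2.06 and 2.09 in DAPT, a change of -1.65 ± 0.11 with 6 probes from -1.98 to -1.07. CCND1, cyclin D1, its activator, was at -0.97 ± 0.12 and lost its call without DAPT replicate 1. CCNE2, a cyclin of entry into S phase, rose by 0.75 ± 0.14.

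Genes that hold the cycle back gave 4 falls and 1 rise among 8 measured, where 13.1% of all features fell and 12.4% rose. CDKN2B, an inhibitor of CDK4 and CDK6, was at 3.51 and 3.89 in DMSO and at 1.18 and 1.09 in DAPT, which was 5.90-fold lower (-2.56 ± 0.17, adjusted p = 0.00225). CDKN2A, the gene next to CDKN2B, was at 0.92 and 1.02 in DMSO and at -0.17 and -0.40 in DAPT, a change of -1.26 ± 0.13 (adjusted p = 0.00573). CDKN1A, which encodes the inhibitor p21, was at 6.50 and 6.28 in DMSO and at 5.56 and 5.58 in DAPT, a change of -0.82 ± 0.12 (adjusted p = 0.0141). The groups of all 3 genes were far apart, and the calls for CDKN2B and CDKN2A held under all 15 alternatives. The call for CDKN1A was lost without DAPT replicate 1 and without DAPT replicate 2. The differences between these lists and the division genes were not tested.

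**Figure D4:**
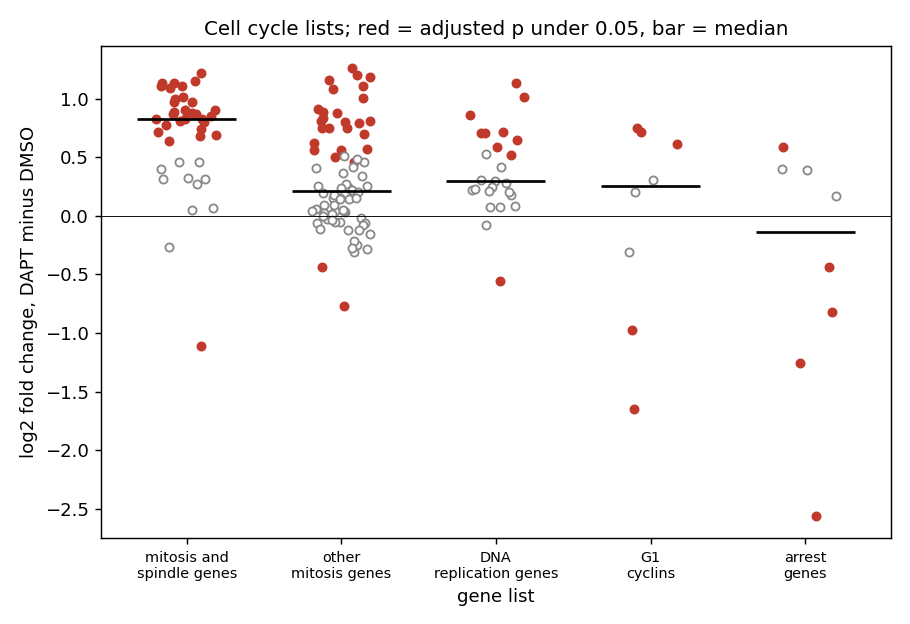
Log2 fold change of each tested gene in 5 cell cycle lists (y axis), with red points at an adjusted p under 0.05 and a bar at the list's median. Medians are 0.82 for the 40 mitosis and spindle genes, 0.21 for the 78 other mitosis genes, 0.30 for the replication genes, 0.26 for the G1 genes and -0.14 for the arrest genes.

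Markers of several cell types also changed between the groups, some up and some down. In the same fit, 12.4% of all features were called higher and 13.1% lower. Of 14 fibroblast markers tested 13 fell, with a median of -3.58, and their summed level, in multiples of the 75th percentile signal, was 297 and 345 in DMSO and 50.9 on both DAPT arrays. Of 16 lens markers 14 rose, with a median of 4.86, and their summed level went from 18.2 and 14.3 (DMSO) to 648 and 686 (DAPT). For the 40 division genes the summed level was 58.2 and 66.1 in DMSO, against 103 and 105 in DAPT. Each summed level depends most on the brightest probes of its list.

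Retinal progenitor markers were mixed, with 3 rises and 1 fall among 10, where 12.4% of all features rose and 13.1% fell. Their summed level was 35.7 and 32 in DMSO, against 45.3 and 43.8 in DAPT. Müller glia markers gave 2 rises and 2 falls among 7, with a median of 0.28 and 4 positive differences. Their summed level, which depends most on the brightest probes, was 408 and 400 against 333 and 347. Neuron markers fell in 5 of 9 cases and rose in 2 (81.4 and 65.2 against 34.6 and 33.0), and photoreceptor markers fell in 8 of 9 (42.4 and 36.9 against 23.6 and 25.7). Pigment cell markers rose in 4 of 5 (0.361 and 0.283 against 1.24 and 1.19), and TYR, among these 4, was well above background on 1 of 2 DMSO arrays and was tested only because both DAPT arrays were. In the same way AQP4, among the Müller glia markers that fell, was well above background on both DMSO arrays but on 1 of 2 DAPT arrays. Of the fibroblast markers DCN was not well above background on any array and TWIST2 not on all, and neither was tested, nor was the pigment cell marker RPE65. The part of these shifts in the rise of the division genes was not tested.

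**Figure D5:**
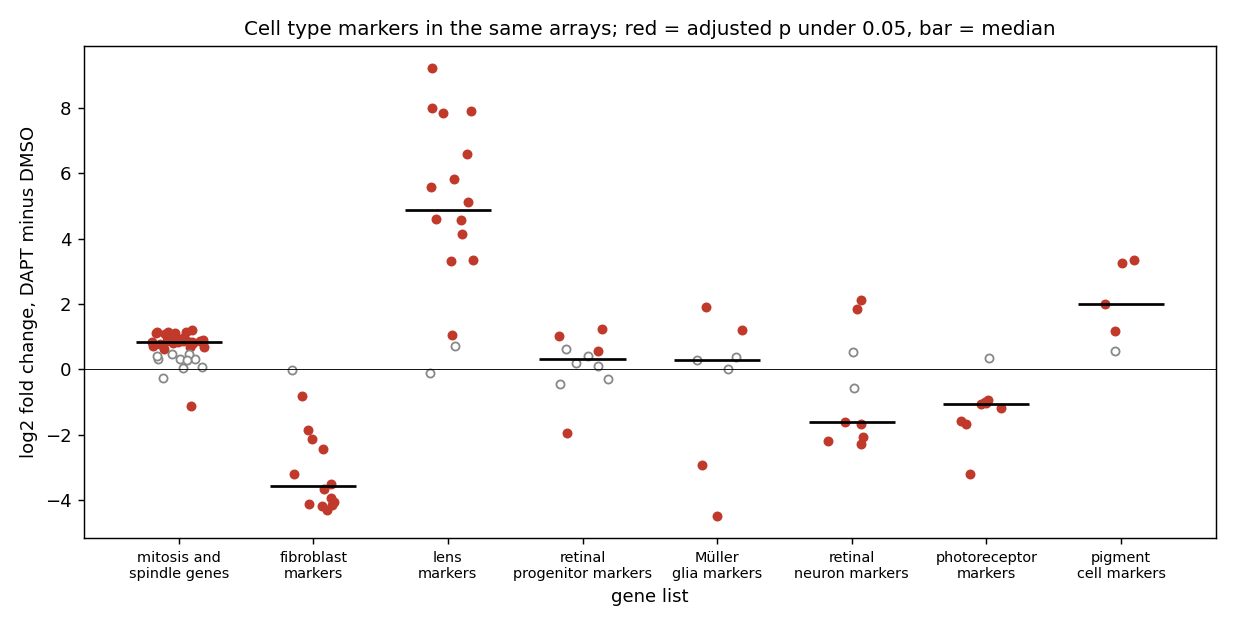
Log2 fold change (y axis) of the 40 division genes and of marker genes of 7 cell types in the same arrays, with red points at an adjusted p under 0.05 and a bar at each median. The division genes lie within 1.3 of 0, while the medians are -3.58 for fibroblast markers and 4.86 for lens markers.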

How the data were processed

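Per the file headers, the authors' spot intensities came from Agilent Feature Extraction 11.5.1.1 as background-subtracted processed signals on a linear scale. In the deposited value table, used as an alternative, each intensity is that signal times 1 factor per array (1.41 to 1.51), linear and not centred. Its columns have medians of 380, 359 (DMSO), 350 and 336 (DAPT). What set the factors stays unknown. Outlier spots (4 to 8 per array) and controls were left out, and no spot was saturated. The log2 processed signal minus the array's 75th percentile was averaged over spots of a probe. The probe with the highest mean represented a gene, and features had to be well above background on both arrays of a group.

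Accessions were named through a gene table of assembly GRCg7b, used for names only (11935 of 43603 probes, while 14692 carried only an Ensembl transcript name). Differences were tested with limma 3.58.1 in R 4.3.3 over 32291 features with Benjamini-Hochberg adjustment, without a block. Same-numbered arrays shared a slide, per the file headers, and deviated together (r = 0.58). The test was checked on simulated data with independent noise, equal for every feature, and no slide effect. That check does not cover deviations shared within a slide or noise that differs between features. Alternatives changed background correction, scaling, filter, probe choice, prior, threshold and block, or left out an array. All mitosis genes on the array are given, and of other lists up to 3 with the largest change past the threshold per group or list, with exceptions named. The genes and lists were chosen with earlier results of these data known. Sequence motifs were not analysed here.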

Additional observations from a re-analysis of the deposited data

How the results depend on the processing

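Of the 29 genes that rose, all stayed higher in DAPT under the 15 alternatives, and 4 kept the call under each. Many of these alternatives could not change the sign. The filter, prior, block and threshold leave a gene's difference as it is, and the scaling removes the factors of the deposited table. Both DAPT arrays lay above both DMSO arrays for all 29, so leaving out 1 array could not reverse the sign either. Precision is limited by having 2 arrays in each group. With the slide as a replicate block, 32 of the 40 division genes were called higher and 1 lower, and none of the 30 calls was lost. That fit also called more of all features, 6862 (21.3%) higher and 18.6% lower, against 12.4% and 13.1% in the main fit. With no filter 28 division genes were called higher and 0 lower (NUSAP1 and SMC4 missed the threshold), where 8.53% of all features were called higher. With the probe that changed least, 25 division genes and 11.8% of all features were called higher. Over the fits that left out 1 array, 5 to 29 division genes were called higher and 0 to 1 lower, 5 to 19 other mitosis genes higher and 0 to 1 lower, with all features higher in DAPT at 1346 to 3079 and all features lower in DAPT at 2034 to 3360. Other mitosis genes called lower numbered 1 with normexp, quantile normalization, median scaling, no filter and the 1.5-fold threshold. MAD2L1, not called, was at -0.0080 with normexp, and ranged from -0.11 to 0.20 over the left-out arrays (-0.024 without DAPT replicate 2). CENPP was at 0.21 with the mean of its probes. Over the left-out arrays CHEK1 ranged from -0.013 (without DMSO replicate 2) to 0.64, and CENPK from -0.22 to 0.35 (-0.057 without DMSO replicate 2). The cause was not tested. Median scaling moved the median of all features from 0.062 to 0.11, and the median of the division genes to 0.87.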
